A study of Mus musculus with 211 samples.

Results

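The genes described here encode 9 cell surface molecules with which blood leukocytes hold on to vessel walls and matrix: 6 integrin chains, the selectin ligand *Selplg*, the hyaluronan receptor *Cd44* and the neutrophil glycoprotein *Cd177*. They were chosen by name and matched in the expression table by Ensembl identifier, which found 9 of 9 among 48709 genes. The table holds single cells from the cochleae of adult CD1 mice carrying the *Lfng*-EGFP transgene, a bacterial artificial chromosome insertion that places GFP under the regulatory sequences of *Lfng* and is meant to mark cochlear supporting cells (SCs). GFP-positive, propidium iodide-negative cells were sorted by FACS and captured on Fluidigm C1 chips, with the cochleae of several mice pooled for each capture. The series compares P60, with 48.3% of the 211 cells in 8 captures, and P120, with 51.7% in 4 captures, both from the same strain and transgene and without any treatment. A single transgene defined the sort, so a cell's identity rests on GFP brightness and on its transcripts.

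An integrin is a dimer of an alpha and a beta chain, and the partner decides what it binds. On leukocytes, the beta chain Itgb2 pairs with Itgal to form LFA-1, which binds ICAMs, and with Itgam to form Mac-1, which binds ICAMs, complement fragments and fibrinogen. Itga4 pairs with Itgb1 to form VLA-4, the receptor for VCAM1 and fibronectin that holds immature cells in the marrow. Itgb2l is a beta chain related to Itgb2, Selplg is the ligand on which leukocytes roll along P-selectin, and Cd177 is a surface protein of neutrophils that associates with Mac-1. In neutrophil development, VLA-4 is known from early, marrow-bound cells, and Mac-1 rises as specific granules form.

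Depth and identity of the cells bear on every value below. Median reads on genes per cell were 735206 at P60, with a range of 41 to 5361476, and 772653 at P120, with a range of 449 to 3610974. The 13 cells of capture 10c had a median of 451 reads. The labelled cell type was checked against fixed lists: at least 3 of 14 SC genes reached 10 reads in 5 of 211 cells, and the SC list held 0.0408% of all reads. At least 3 of 11 neutrophil genes reached 10 reads in 197 of 211 cells, and that list held 16.1% of reads, between 2.15% and 26.2% across captures. The hair cell and endothelial lists held 0.000301% and 0.00137% of reads. The data therefore go against the SC label for most cells, which are called here by the genes they carry. Of the 164 cells with at least 50000 reads, 21 were set apart first as basophil gene cells. They had at least 2 of 5 basophil and mast cell genes (*Prss34*, *Mcpt8*, *Fcer1a*, *Cpa3*, *Ms4a2*) at 10 reads. Of the rest, 34 had 2 or more of 6 primary granule genes (*Elane*, *Mpo*, *Prtn3*, *Ctsg*, *Ms4a3*, *Prss57*) at 10 reads. Then 95 had *Il1b* or *Cxcr2* at 10 reads, and 14 met none of these limits and are called intermediate. Basophil gene cells carry primary granule genes too. That list held 0.56% of their reads, against 2.61% in primary granule and 0.00146% in *Il1b* or *Cxcr2* cells. These cuts define ranges, and 11 cells lay 1 gene below the primary granule cut while 10 lay on it. One sequencing run, S047, holds 6 captures, all P60, while the other runs hold captures 31 and 40 at P60 and all 4 captures at P120.

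The alpha chains are *Itgam* (ENSMUSG00000030786, chr7:128062640-128118491, plus strand, GRCm38), *Itgal* (ENSMUSG00000030830, chr7:127296260-127335138, plus strand) and *Itga4* (ENSMUSG00000027009, chr2:79255426-79333123, plus strand). The beta chains are *Itgb2* (ENSMUSG00000000290, chr10:77530252-77565708, plus strand), *Itgb2l* (ENSMUSG00000000157, chr16:96422288-96443619, minus strand) and *Itgb1* (ENSMUSG00000025809, chr8:128685654-128733200, plus strand). The other receptors are *Selplg* (ENSMUSG00000048163, chr5:113818536-113832644, minus strand), *Cd44* (ENSMUSG00000005087, chr2:102811141-102901665, minus strand) and *Cd177* (ENSMUSG00000052212, chr7:24743983-24760311, minus strand). All are protein-coding genes, and reads are counted over their exons. *Itgb2* and *Itgb2l* transcripts share 0 stretches of 50 bases, so the relatedness of these chains does not make their reads interchangeable at that length. *Itgam*, *Itga4* and *Cd44* overlap another annotated gene, and those neighbours held 27, 38 and 237 reads against 59127, 31686 and 178721 on the members.

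*Itgam*, *Itgb2l* and *Cd177* varied together across cells, as described further on, and the 250 bases before their start sites are shown for that reason. The sequences are from RefSeq for GRCm38.p6, which gave a promoter for 6 of the 9 members. They read 5′ to 3′ on the strand of the gene, with matches to 3 motifs on either strand in capitals. The PU.1 core was searched as GAGGAA, which reads TTCCTC on the opposite strand. The C/EBP motif was searched as TTNNGNAA, which reads TTNCNNAA on the opposite strand, and the TATA box as TATAAA, which reads TTTATA there.
Itgam, chr7:128062390-128062639, plus strand: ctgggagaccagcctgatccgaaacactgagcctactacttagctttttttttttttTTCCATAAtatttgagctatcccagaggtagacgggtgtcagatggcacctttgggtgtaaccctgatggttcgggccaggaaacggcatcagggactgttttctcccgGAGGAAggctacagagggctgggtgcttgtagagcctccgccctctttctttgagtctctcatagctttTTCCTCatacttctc
Itgb2l, chr16:96443615-96443864, minus strand: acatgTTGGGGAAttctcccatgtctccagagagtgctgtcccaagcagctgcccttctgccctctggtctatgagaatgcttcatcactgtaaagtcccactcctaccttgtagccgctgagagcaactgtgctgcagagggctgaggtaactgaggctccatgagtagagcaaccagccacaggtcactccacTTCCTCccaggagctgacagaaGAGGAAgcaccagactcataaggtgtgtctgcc
Cd177, chr7:24760312-24760561, minus strand: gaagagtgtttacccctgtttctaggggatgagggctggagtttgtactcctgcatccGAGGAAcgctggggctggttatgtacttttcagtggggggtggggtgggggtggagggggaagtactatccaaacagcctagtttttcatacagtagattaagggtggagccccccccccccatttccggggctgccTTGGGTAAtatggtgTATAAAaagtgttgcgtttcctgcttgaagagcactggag
*Itgam* holds the PU.1 letters at 84 and 15 bases before the start, and *Itgb2l* at 55 and 33. *Cd177* holds them once, at 192, and has the C/EBP letters at 55 and the TATA box at 40 bases before the start. The C/EBP letters lie at 193 bases in *Itgam* and at 245 in *Itgb2l*. Of 32851 promoter windows of this length, 23.3% hold the PU.1 letters, 36.8% the C/EBP letters and 12.4% the TATA box, so each match alone is common. The RUNX motif (TGTGGT, which reads ACCACA on the opposite strand, in 14% of windows) had no match in these 3 windows and 1 in that of *Itga4*, at 60 bases.

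Per length of transcript, *Cd177* and *Itgb2* were the most abundant members and *Itga4* the least. Over all cells pooled, in RPKM, reads scaled by transcript length and library total, the levels were 243 for *Cd177* and 218 for *Itgb2*, the common leukocyte beta chain. *Cd44* followed with 120, *Selplg* with 93.5 and *Itgam* with 53.5. Close together came *Itgb2l* with 43.5 and *Itgal* with 41, and *Itgb1* with 23 and *Itga4* with 10.3 RPKM closed the order. Neighbours in this order were rarely apart in every capture. *Cd177* exceeded *Itgb2* in only 4 of 12 captures and *Itgb2l* exceeded *Itgal* in 4, although both lead in the pooled order, and *Itgb1* exceeded *Itga4* in 5. The clearest step was from *Itgal* to *Itgb1*, in 11 of 12 captures, followed by *Itgb2* over *Cd44* and *Itgam* over *Itgb2l* in 9 each.

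*Cd44* and *Itgb2* reached the most cells, and *Itga4* and *Itgb1* the fewest. At least 1 read of *Cd44* was present in 174 of 211 cells (82.5%, exact Clopper-Pearson 95% interval 76.6 to 87.3%) and of *Itgb2* in 167 (79.1%). The shares were 70.1% for *Itgam*, 62.6% for *Selplg*, 60.2% for *Cd177*, 59.2% for *Itgal* and 41.7% for *Itgb2l*. *Itga4* had a read in 37.4% and *Itgb1* in 27.5% of cells. These intervals cover counting error only, since reads without molecular identifiers are not separate molecules. Many of these cells held very few reads: of cells with any read, 55.7% had 1 to 9 for *Itga4*, 52.8% for *Cd177* and 51.7% for *Itgb1*, against 27% for *Cd44*. For *Cd177* the share of such low cells was 27.3% in run S047 and 55.2% in the other runs, and whether low values come from the cells themselves was not tested. At a minimum of 10 reads, *Cd44* was found in 60.2% of cells, *Itgb2* in 57.3%, *Cd177* in 28.4%, *Itga4* in 16.6% and *Itgb1* in 13.3%. With every cell thinned to 50000 reads, *Cd44* kept a read in 73.2% and *Itgb2* in 69.5% of 164 cells, and *Itga4* and *Itgb1* in 25% and 15.2%. A thinned cell most often held 5 of the 9 members (34 cells), while 5 cells held 0 and 2 cells held all 9.

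Single cells dominated the reads of the VLA-4 chains. One cell supplied 56.1% of all *Itgb1* reads and one cell 41.9% of all *Itga4* reads. For *Cd44* the top cell supplied 8.08%, for *Itgb2* 10.6% and for *Cd177* 11.8%. Pooled levels of *Itgb1* and *Itga4* thus depend on few cells. In the sums per capture and class compared below, single cells weighed on other members too. In capture 31, 1 cell supplied 89.3% of the *Itgal* reads of primary granule cells and 1 cell 86.7% of those of *Il1b* or *Cxcr2* cells. In *Il1b* or *Cxcr2* cells it was 99.7% for *Itgb2l* in capture 9c and 88.7% for *Selplg* in capture 40. For *Cd44* in that class it was as low as 21.7% in capture 31. In any sum over cells, fewer cells with a transcript and less RNA per cell cannot be told apart.

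Between P60 and P120, none of the members differed beyond the spread of the captures. Counts were summed per capture and tested with edgeR's quasi-likelihood test, which called 0 of 9 members, with 0 at an unadjusted p under 0.05 (5.31% of genes tested). DESeq2 called 0 of the 8 members for which it gave an adjusted p. Of 8346 genes tested, 10 were called (0.12%), and 8 by DESeq2 (0.0959%). For 0 members did the captures of one stage lie wholly above those of the other, as they did for 0.419% of genes tested. Levels in this and the following comparisons are in CPM, counts scaled by the total of reads on genes, and are set side by side within a gene only.

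*Itgam*, the alpha chain of Mac-1, ranged over P60 captures from 8.39 to 504 CPM with a median of 107.7, and was 143, 418, 232 and 189 CPM in the P120 captures 28, 32, 36 and 38. All P120 values lay inside the P60 range, and the highest capture was P60 capture 40. The log2 fold change, P120 over P60, was 1.10 ± 1.53 (SE; edgeR, adjusted p = 1.0), and it turned to -0.25 with the sequencing run as a covariate. *Itgal*, the alpha chain of LFA-1, ranged at P60 from 3.91 to 934 CPM with a median of 166, and was 220, 310, 155 and 534 CPM in captures 28, 32, 36 and 38. The P120 captures were closer to each other than the P60 captures, and the log2 fold change was 0.34 ± 1.48. *Itga4*, the alpha chain of VLA-4, ranged at P60 from 16.8 to 648 CPM with a median of 54.5. At P120 it was 509 CPM in capture 28 and 25.4, 5.37 and 18 in the others. Capture 28 stood far above the other P120 captures, as capture 17c, with 3 cells, did at P60. Its log2 fold change was 0.07 ± 1.73 and fell to -2.50 without capture 28.

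*Itgb2*, the beta chain of LFA-1 and Mac-1, ranged at P60 from 1.51 to 1278 CPM with a median of 593, and was 480, 268, 179 and 775 CPM at P120. The P120 captures all lay within the P60 range, with a log2 fold change of -0.50 ± 1.43. *Itgb2l* had 0 reads in the P60 captures 10c, 20c and 21c, where 3 reads would be 25.2, 0.440 and 0.642 CPM. It reached 299 CPM in capture 31 and 297 in capture 28, and was 62.7, 1.75 and 141 CPM in captures 32, 36 and 38. The captures without it were all in run S047, but capture 9c of that run had 224 CPM, beside 223 in capture 40. The highest captures came from both stages. Its log2 fold change was 0.08 ± 1.73, and -1.37 with run as a covariate. *Itgb1*, the beta chain of VLA-4, had 0 reads in captures 10c and 20c, reached 76.4 CPM in capture 9c at P60, and was 345, 34.2, 0.110 and 15.8 CPM at P120. Capture 28 was again the highest, and the log2 fold change of 2.18 ± 1.98 became -0.10 without it.

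*Selplg*, which carries the sugar groups that P-selectin binds, ranged at P60 from 0.856 to 1496 CPM with a median of 136, and was 164, 538, 690 and 97.5 CPM at P120. Its highest captures, 20c and 31, were both P60, and the log2 fold change was 0.43 ± 1.41, falling to -0.93 without capture 36. *Cd44*, which binds hyaluronan and E-selectin, ranged at P60 from 8.39 to 1756 CPM with a median of 788, and was 766, 124, 660 and 333 CPM at P120. The stages overlapped, with a log2 fold change of -0.23 ± 1.39. *Cd177* had 0 reads in captures 10c, 17c and 21c and 0.44 CPM in 20c, against 1471 in capture 31. At P120 it was 624, 163, 45.1 and 1004 CPM, so the low captures were all P60 captures of run S047. Capture 9c of that run was not low, with 967 CPM in primary granule cells and 309 in *Il1b* or *Cxcr2* cells. The log2 fold change was 0.22 ± 1.44, and -1.43 with run as a covariate. Members had a median log2 fold change of 0.22, beside 0.26 over all genes tested. Because 6 of 8 P60 captures form a run of their own, the run and the stage are partly confounded in all of these values. The captures also differed in class make-up. Primary granule cells numbered 0 in captures 10c, 19c, 20c, 21c, 32 and 36 and 1 in 17c and 38. They numbered 4, 5, 12 and 11 in captures 9c, 31, 40 and 28. The part of class make-up in the stage values was not tested.

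**Figure D1:**
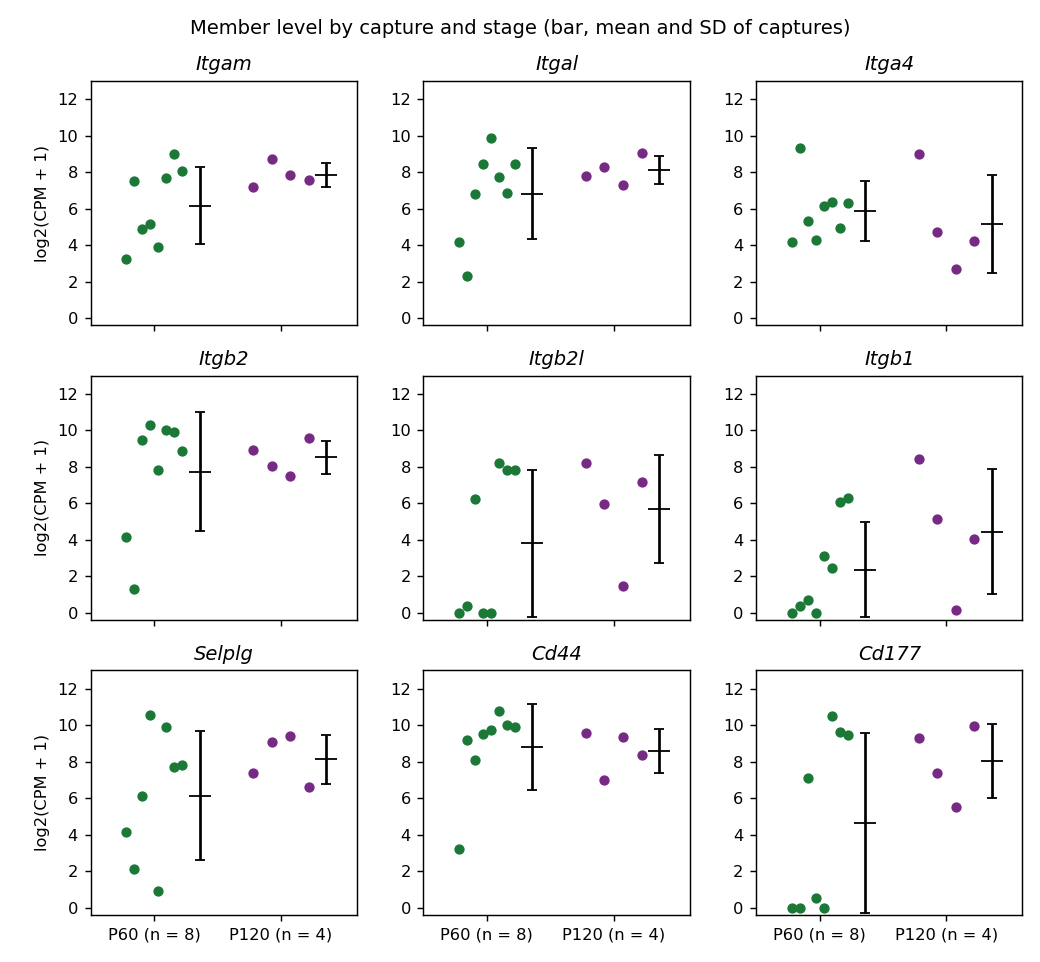
Summed level of each member, as log2(CPM + 1) on the vertical axis, in the 8 P60 captures (green) and 4 P120 captures (purple), 1 point per capture, with the mean and SD of the captures as a black bar. The stages overlap for every member, and the P60 points of Itgb2l and Cd177 reach down to 0.

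Cells with primary granule genes and cells with *Il1b* or *Cxcr2* were then compared within the 4 captures that held at least 3 of each, captures 31, 40 and 9c at P60 and 28 at P120. This comparison was added after the data were seen. In summed CPM, *Itgam* and *Itgb2*, the chains of Mac-1, were lower in primary granule cells in 4 of 4 captures, while 2.81% of all genes tested were. In the same sums 0 members were higher in all 4, against 17.3% of genes. edgeR called 0 of 9 members, with 3 at an unadjusted p under 0.05 (*Cd44*, *Itgb1* and *Selplg*; 9.66% of genes), beside 42 of 13180 genes (0.319%). DESeq2 called 1 member, *Itgb1*, higher in primary granule cells, beside 1972 genes, or 15% of those tested. The median log2 fold change over all genes tested was 1.62 towards primary granule cells, whose median of 4510 detected genes per cell compares with 1624 in *Il1b* or *Cxcr2* cells. The neutrophil list held 15.3% and 19.2% of reads in these classes. Some fold changes are therefore also given relative to that median.

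*Itgam* in primary granule cells was 132, 183, 162 and 47.6 CPM in captures 31, 40, 9c and 28, against 239, 821, 287 and 400 CPM in *Il1b* or *Cxcr2* cells. Each capture gave the lower sum in the primary granule cells, and the ranges did not overlap. One *Il1b* or *Cxcr2* cell supplied 57.4%, 53.9%, 47.2% and 56% of that class's *Itgam* reads in these captures. The median per-cell CPM of *Itgam* was higher in primary granule cells in captures 31 and 9c (75.8 and 63.8 against 22.4 and 27.4). It was lower in captures 40 and 28 (126 and 14.8 against 256 and 161). The log2 fold change was -2.56 ± 1.31 (edgeR, adjusted p = 0.519), or -4.18 relative to the median gene. *Itgb2* was 784, 338, 433 and 505 CPM against 1176, 1713, 487 and 589 CPM in the same order of captures. The difference in sums within captures was small in 9c and 28 and large in 40, at -1.60 ± 0.96 on the log2 scale (edgeR, adjusted p = 0.553). The median per-cell CPM of *Itgb2* was higher in primary granule cells in captures 31, 9c and 28 (498, 298 and 146 against 184, 210 and 27.3). It was lower in capture 40 (138 against 583). One *Il1b* or *Cxcr2* cell supplied 57.1%, 46.8%, 57% and 51.9% of that class's *Itgb2* reads in captures 31, 40, 9c and 28. *Itgal* was 37.1, 29 and 17.9 CPM against 301, 221 and 126 CPM in the P60 captures, and 421 against 73.7 in capture 28. The P60 captures and the P120 capture thus pointed in opposite directions, and the log2 fold change was -2.84 ± 1.70 (adjusted p = 0.553).

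The VLA-4 chains were uneven. *Itga4* was 10.7, 52.7, 110 and 998 CPM in primary granule cells of captures 31, 40, 9c and 28, against 115, 0.161, 120 and 1.45 CPM in *Il1b* or *Cxcr2* cells. It was much higher in primary granule cells in captures 40 and 28 and lower in 31 and 9c. The log2 fold change of 3.04 ± 3.67 (adjusted p = 0.714) became -0.20 without capture 28 and -0.17 without capture 40. *Itgb1* was 14.2, 141, 81 and 765 CPM against 0.0868, 0, 153 and 0.459 CPM. In 3 of 4 captures it was all but absent from *Il1b* or *Cxcr2* cells, and capture 9c was the exception. Of these 4, only capture 9c is from run S047. It also held 30720362 reads on added spike-in sequences, against 89, 75 and 43951 in captures 31, 40 and 28. The part of these differences in the exception was not tested. For *Itgb1* the log2 fold change was 7.78 ± 3.27 (adjusted p = 0.447), or 6.16 relative to the median gene, and 5.88 to 9.48 when captures were left out in turn. One primary granule cell supplied 63.5% of the class's *Itgb1* reads and one 56.9% of its *Itga4* reads.

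*Itgb2l* was 352, 425, 207 and 391 CPM in primary granule cells and 280, 46.1, 188 and 418 CPM in *Il1b* or *Cxcr2* cells, with a log2 fold change of 0.02 ± 1.34. Its levels overlapped, and only capture 40 showed a large step. *Cd177* was 2145, 878, 967 and 350 CPM against 1188, 632, 309 and 1524 CPM. It was higher in primary granule cells at P60 and lower in capture 28, with a log2 fold change of -0.58 ± 0.94 (adjusted p = 0.809) that became 0.12 without capture 28 and 0.30 with library totals in place of TMM. *Selplg* was 74.5, 7.48, 129 and 228 CPM against 1361, 433, 270 and 93.2 CPM. The P60 captures were lower and capture 28 higher in primary granule cells, and the log2 fold change of -3.28 ± 1.66 (adjusted p = 0.515) became -1.82 at the least when a capture was left out. One cell supplied 62.2% of the *Selplg* reads of primary granule cells. *Cd44* was 903, 96.2, 1001 and 553 CPM against 2179, 2090, 782 and 1092 CPM, lower in sum in all but capture 9c, with a log2 fold change of -2.24 ± 0.91 (edgeR, adjusted p = 0.431). Its median per-cell CPM was lower in primary granule cells in captures 31 and 40 (1086 and 37.4 against 1618 and 1195). It was higher in captures 9c and 28 (1016 and 331 against 484 and 195). The median log2 fold change over the members was -1.60.

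**Figure D2:**
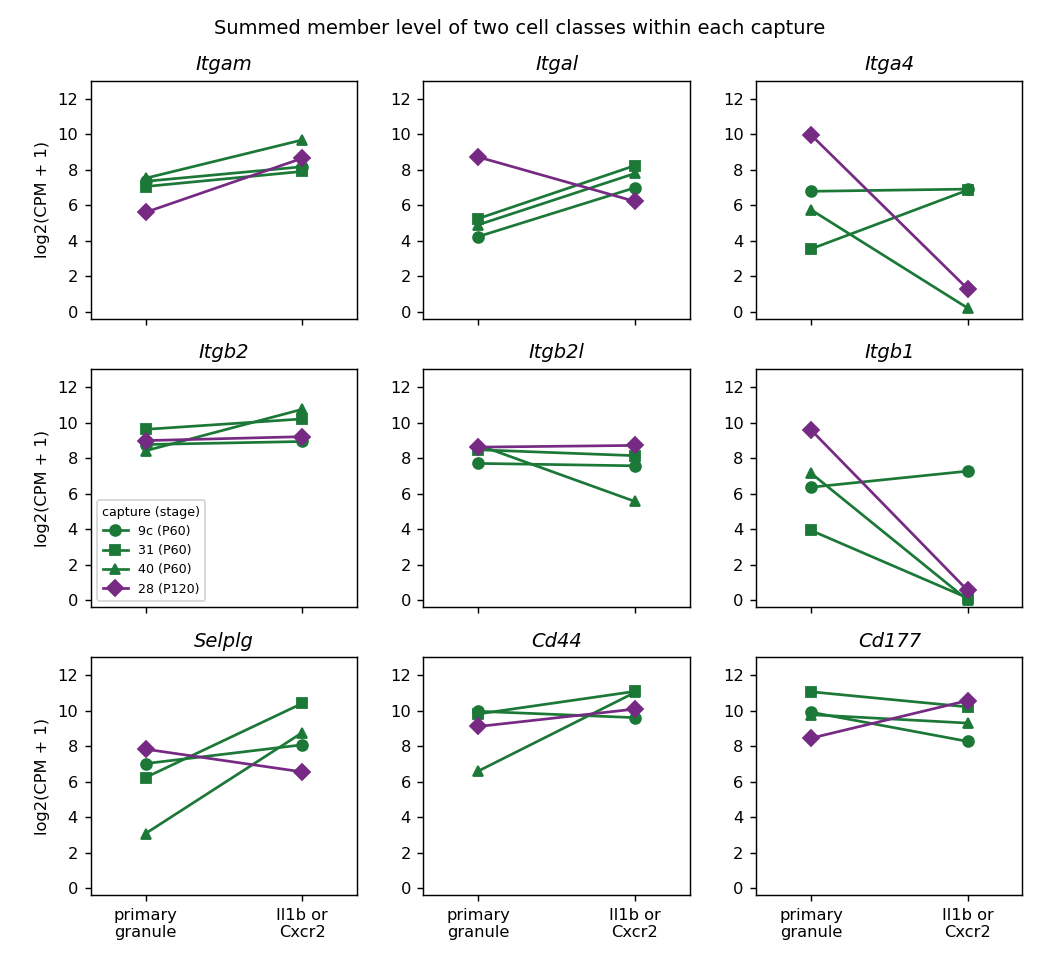
Summed level of each member, as log2(CPM + 1) on the vertical axis, in primary granule cells (left) and Il1b or Cxcr2 cells (right), joined within each of 4 captures (3 at P60 in green, 28 at P120 in purple). The lines of Itgam and Itgb2 rise to the right in all 4 captures, and those of Itgb1 fall in 3 of them.

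Counting cells instead of reads gave another view. At 50000 reads per cell, *Itgb2l* had a read in 55.9% of 34 primary granule cells, 20.0% of 95 *Il1b* or *Cxcr2* cells and 14.3% of 21 basophil gene cells. *Cd177* followed the same order with 61.8%, 34.7% and 19%. *Itga4* was found in 44.1%, 17.9% and 38.1%, and *Itgb1* in 35.3%, 4.21% and 42.9%. Of these 3 classes, both VLA-4 chains had their lowest share in *Il1b* or *Cxcr2* cells, a difference that was not tested. Among the 14 intermediate cells, *Itga4* had a read in 1 and *Itgb1* in 0. Within captures, *Itgb1* was present in 3 of 11, 2 of 5 and 3 of 12 primary granule cells of captures 28, 31 and 40 and in 0 of 10, 0 of 12 and 0 of 8 *Il1b* or *Cxcr2* cells. In capture 9c it was in 3 of 4 and 3 of 9. *Cd44* had a read in 82.4%, 75.8% and 52.4%, and *Itgb2* in 76.5%, 67.4% and 66.7% of the 3 classes. *Itgal* was found in 41.2%, 42.1% and 42.9%, with 28.6% of intermediate cells, and *Selplg* was found in 35.3%, 49.5% and 57.1%. *Itgam* was found in 70.6%, 49.5% and 28.6%. For *Itgam*, *Itgb2* and *Cd44* the share was higher in primary granule than in *Il1b* or *Cxcr2* cells although the summed CPM was lower, so no order between these classes is read from their shares. The classes differ in depth, with a median of 1845310 reads in primary granule cells, 850832 in *Il1b* or *Cxcr2* cells and 1700680 in basophil gene cells, and in genes detected, which thinning does not equalize.

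**Figure D3:**
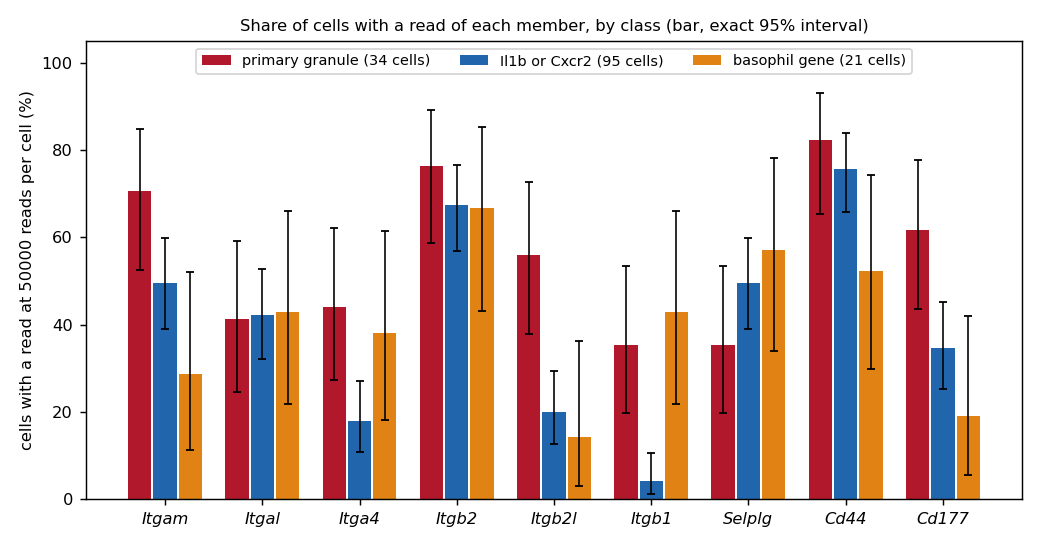
Percentage of cells with at least 1 read of each member after thinning to 50000 reads, in 34 primary granule cells (red), 95 Il1b or Cxcr2 cells (blue) and 21 basophil gene cells (orange), with exact 95% intervals for counting error. Itgb1 is lowest in Il1b or Cxcr2 cells, at 4.21%, and Itgal lies between 41.2% and 42.9% in the 3 classes.

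Basophil gene cells came almost wholly from P120, with 20 of 21 cells, and were compared with *Il1b* or *Cxcr2* cells within captures 28 and 32. This comparison too was added after the data were seen, and it shares the *Il1b* or *Cxcr2* sums with the previous one. In summed CPM, 7 of 9 members were lower in basophil gene cells in both captures (10.1% of genes tested were), and *Itgb1* was higher in both (48.6% of genes were). In capture 32, 1 *Il1b* or *Cxcr2* cell supplied 96.2% of that class's *Itgam* reads, 97.4% of *Itgb2l* and 78.2% of *Selplg*. Among basophil gene cells there, 1 cell supplied 76.9%, 86.4% and 48.4%. The median per-cell CPM of *Itgb2* was higher in basophil gene cells in capture 32 (132 against 13.4). It was lower in capture 28 (20.4 against 27.3). edgeR called 0 of 9, with 5 at an unadjusted p under 0.05 (14% of genes), beside 36 of 11474 genes (0.314%). DESeq2 called 4 members, *Cd177*, *Itgam* and *Itgb2l* lower and *Itgb1* higher, beside 19.2% of genes. The median log2 fold change of the members was -3.94, against 2.45 over all genes tested. The neutrophil list held 5.83% of reads in basophil gene cells and 19.2% in *Il1b* or *Cxcr2* cells, and its part in the members' values was not tested.

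*Itgb2l* was 0.489 and 17 CPM in basophil gene cells of captures 28 and 32, against 418 and 159 CPM in *Il1b* or *Cxcr2* cells. The log2 fold change was -7.39 ± 3.02 (edgeR, adjusted p = 0.331). *Cd177* was 1.95 and 134 CPM against 1524 and 224 CPM, far lower in capture 28 and by a small step in 32. Its log2 fold change of -5.99 ± 2.68 (adjusted p = 0.339) passed the threshold without capture 32 (-10.10, adjusted p = 0.0428), where basophil gene cells are 1 sum that is assumed to vary like the other groups, and was -1.54 at the other end of the range over captures left out. *Itgam* was 7.57 and 236 CPM against 400 and 802 CPM, and *Cd44* 113 and 58.6 CPM against 1092 and 262 CPM. Both were low in each capture, at -4.67 ± 2.14 (adjusted p = 0.342) and -3.94 ± 1.47 (adjusted p = 0.331). *Selplg* was 49 and 144 CPM against 93.2 and 1366 CPM, with a log2 fold change of -4.53 ± 1.92. Of the lower members, *Itgal* (67.3 and 263 CPM against 73.7 and 411 CPM) and *Itgb2* (429 and 249 against 589 and 309 CPM) were closest between the classes in summed CPM. Their log2 fold changes were -3.15 ± 2.44 and -1.63 ± 1.36. Fold changes rest on TMM factors and CPM on read totals, so they need not match in size. *Itgb1* was 45.3 and 50.5 CPM against 0.459 and 0.0931 CPM, at 6.0 ± 3.47 (adjusted p = 0.41). *Itga4* went in opposite directions, 373 against 1.45 CPM in capture 28 and 14.2 against 48.9 CPM in capture 32.

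Intermediate cells formed a sum of at least 3 cells only in capture 9c, so comparisons with them rest on 1 capture, and this lone sum is assumed to vary like those of the other classes. Under that assumption edgeR called 13 genes (0.0986%) for primary granule cells and 2 (0.0152%) for *Il1b* or *Cxcr2* cells of 13180, with 0 members among either by edgeR and, by DESeq2, 1 (*Itgb1*, higher in primary granule cells, beside 7.09% of genes) and 0 (beside 4.43%). At an unadjusted p under 0.05 the edgeR comparisons held 3 members (*Itga4*, *Itgal* and *Itgb1*) and 1 member (*Itgb1*), beside 3.6% and 4.2% of genes. The SC list held 0.384% of reads in intermediate cells, against 0.00767% and 0.0106% in the primary granule and *Il1b* or *Cxcr2* cells. The monocyte and macrophage list held 0.124%, against 0.00135% and 0.0123%. The neutrophil list held far more, 21.4% of reads in intermediate cells, against 15.3% and 19.2%. Intermediate cells are thus a mixed group in which neutrophil genes held the most reads of these lists. The part of these lists in the values was not tested.

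Switches between chains were read from the chain with the highest level per length in each cell, among cells with at least 10 reads on the chains together. Of 123 such cells, *Itgam* led the alpha chains in 62 (50.4%), *Itgal* in 47 and *Itga4* in 14, and the leader held over 90% of the summed level in 49, 26 and 8 of them. In most of these cells the reads thus fell mainly on 1 alpha chain. Without molecular identifiers, whether the other chains were absent or were missed was not tested. *Itga4* led in 8 of 31 primary granule cells and 5 of 20 basophil gene cells but in 1 of 63 *Il1b* or *Cxcr2* cells, and 8 of its 14 cells were in capture 28. *Itgam* led in 18 primary granule, 34 *Il1b* or *Cxcr2* and 4 basophil gene cells, and *Itgal* in 5, 28 and 11. By stage, *Itgam* led in 36 of 63 cells at P60 and 26 of 60 at P120, and *Itga4* in 5 and 9.

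Among the beta chains, *Itgb2* led in 99 of 125 cells (79.2%), *Itgb2l* in 15 and *Itgb1* in 11. In primary granule cells the leaders were *Itgb2* in 19, *Itgb2l* in 6 and *Itgb1* in 5 of 30, and in *Il1b* or *Cxcr2* cells 58, 8 and 1 of 67. Basophil gene cells were led by *Itgb2* in 12, *Itgb2l* in 1 and *Itgb1* in 4 of 17. Taken as pairs of leaders, *Itgam* with *Itgb2* (Mac-1) was found in 44 and *Itgal* with *Itgb2* (LFA-1) in 29. *Itgam* with *Itgb2l* led in 11 cells. *Itga4* led together with *Itgb2* in 6 cells and with its VLA-4 partner *Itgb1* in 3, and *Itgal* led with *Itgb1* in 5 and with *Itgb2l* in 3. Both chains of Mac-1 reached 10 reads in 69 of 164 cells, among them 22 of 34 primary granule and 36 of 95 *Il1b* or *Cxcr2* cells. Both chains of LFA-1 did so in 49 cells. Both chains of VLA-4 did so in 11 cells, 7 of 34 primary granule, 1 of 95 *Il1b* or *Cxcr2* and 3 of 21 basophil gene cells.

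**Figure D4:**
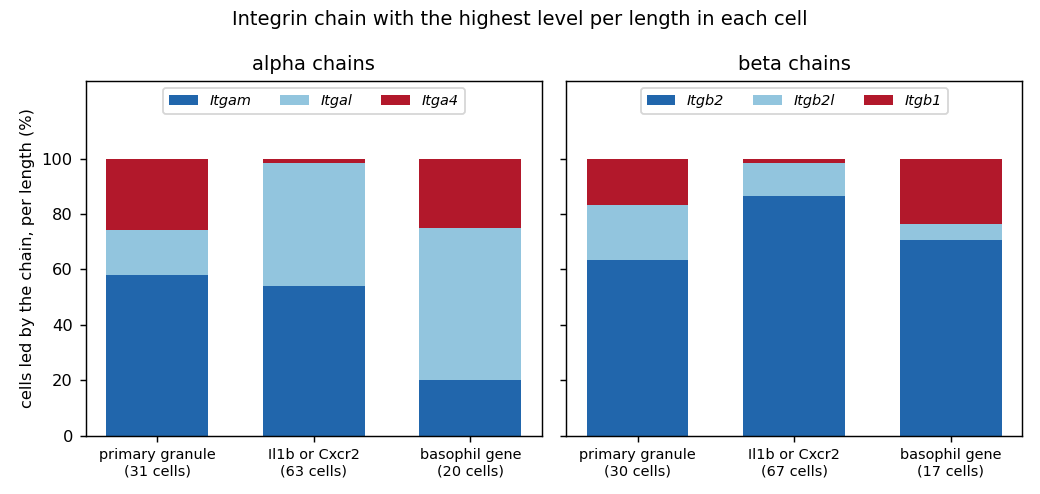
Percentage of cells in which each alpha chain (left) or beta chain (right) had the highest level per length, by class, among cells with at least 10 reads on the 3 chains together. Itga4 leads 8 of 31 primary granule cells and 1 of 63 Il1b or Cxcr2 cells, and Itgb2 leads most cells of every class.

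Ratios of chains within a capture, as log2 of CPM with 1 CPM added, were compared by exact two-sided permutation tests, with the 8 p-values adjusted together. *Itga4* over *Itgam* averaged -0.31 ± 2.09 (SD, n = 8 captures) at P60 and -2.67 ± 3.09 (n = 4) at P120. The P120 captures 32, 36 and 38 were low and capture 28 high, and the stages overlapped (exact permutation p = 0.141, adjusted p = 0.566). Without capture 28 the difference of -2.36 became -3.86 (exact p = 0.0303, unadjusted), and within the runs that hold both stages it was 0.01. The other stage differences were -0.38 for *Itgal* over *Itgam*, 1.30 for *Itgb1* over *Itgb2* and 1.12 for *Itgb2l* over *Itgb2* (exact adjusted p = 0.954, 0.762 and 0.762). Between primary granule and *Il1b* or *Cxcr2* cells, 4 captures allow no exact p below 0.125. *Itgb2l* over *Itgb2* was higher in primary granule cells in 4 of 4 captures, by 1.72 on average (exact p = 0.125, adjusted p = 0.566). Capture 40 made most of this mean, which was 0.45 without it. The ratio was 0.33 against -5.19 in capture 40 and -0.37 against -0.49 in capture 28. *Itgb1* over *Itgb2* was higher in 3 of 4, by 5.60 (exact p = 0.25), as was *Itga4* over *Itgam*, by 4.41 (exact p = 0.375). *Itgal* over *Itgam* was higher in 1 of 4, with a mean difference of 0.19 that capture 28 decided, since it was -1.60 without it.

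Across cells, *Itgb2l* and *Cd177* were found together. At 50000 reads per cell, *Cd177* had a read in 41 of 45 cells with *Itgb2l* (91.1%) and in 25 of 119 without (21%), and Spearman's rho of the CPM was 0.70 over 164 cells. *Itgam* was present in 40 of 45 *Itgb2l* cells, with rho = 0.49, and rho was 0.46 between *Itgam* and *Cd177*. By contrast, *Itgam* and *Itgal* had a rho of -0.02. *Itgam* with *Itgb2*, partners in Mac-1, had 0.35 and *Itga4* with *Itgb1*, partners in VLA-4, had 0.15, with *Itgb1* in 12 of 41 *Itga4* cells and 13 of 123 others. These coefficients are descriptions, since the cells share captures and runs and differ in depth. *Cd177* had a rho of 0.33 with depth and *Itgb2l* 0.21, and *Itgb1* had 0.49 with the number of genes detected; the part of depth in these pairs was not tested.

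**Figure D5:**
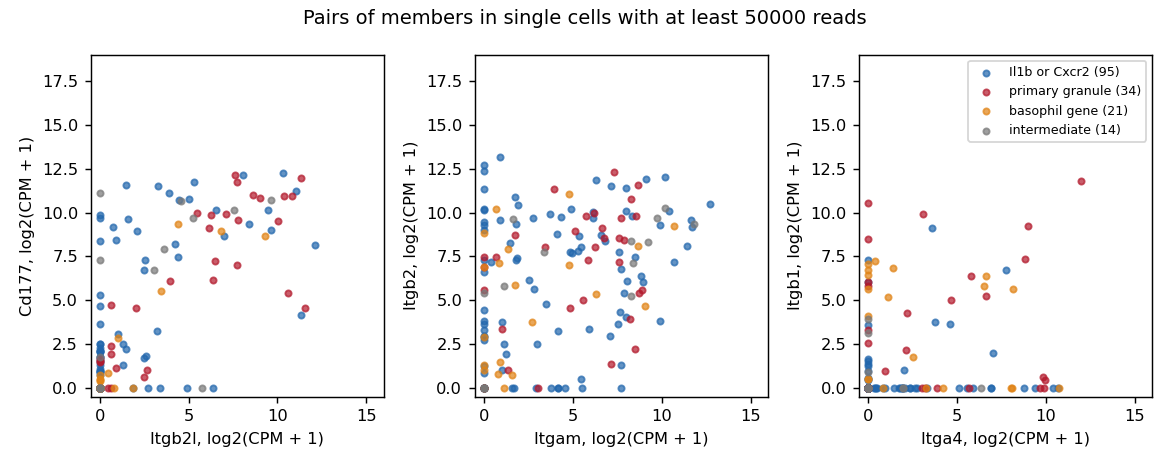
Each of 164 cells with at least 50000 reads by the log2(CPM + 1) of a pair of members, colored by class. Itgb2l and Cd177 (left) rise together, with rho = 0.70, Itgam and Itgb2 (middle) have 0.35, and cells high in both Itga4 and Itgb1 (right) are few, with 0.15.

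Among 3788 genes with a read in at least 25% of these cells, those most like *Itgb2l* were *Ngp* (rho = 0.74), *Camp* (0.73) and *Chil3* (0.71), with *Cd177* (0.70) and *Cybb* (0.68) next. *Ngp* and *Camp* encode specific granule proteins. Those most like *Itgam* were *Ngp* at 0.59, *Lcn2* at 0.56, *Ltf* at 0.53, *Adpgk* at 0.52 and *Camp* at 0.51. *Lcn2* and *Ltf* are specific granule genes too. The genes most like *Itga4* were *Psmd14* (0.44), *Emg1* (0.43), *Txnrd1* (0.43), *Pnn* (0.41) and *Psma6* (0.41), and those most like *Selplg* were *Dusp1* (0.47), *Ncor1* (0.40), *Antxr2* (0.38), *S100a6* (0.36) and *Hcar2* (0.36). No specific granule gene was among these 10.

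Other genes of adhesion were followed as lists. Of 21 other integrin chains, 6 could be tested between stages, 13 between primary granule and *Il1b* or *Cxcr2* cells and 11 for basophil gene cells. edgeR called 0 of them, with 3, 1 and 1 at an unadjusted p under 0.05, and DESeq2 called 0, 0 and 4. Over all genes, 5.31%, 9.66% and 14% had such a p, and DESeq2 called 0.0959%, 15% and 19.2%. The 6 chains tested between the stages had a median log2 fold change of 3.94, beside 0.26 over all genes. Those with the most reads were *Itga7* (67.5 CPM pooled), *Itgb3* (66.9) and *Itga2b* (34). Genes that activate integrins and link them to actin, led by *Rap1b* (914 CPM), *Fyb* (319) and the talin gene *Tln1* (303), had 12, 13 and 13 of 14 tested in the same order. edgeR called 0, with 0, 2 and 1 at an unadjusted p under 0.05, and DESeq2 called 0, 0 and 1. Selectins and counter-receptors, among them *Cd47* (757 CPM) and *Pecam1* (124), had 6, 9 and 8 of 12 tested. edgeR called 0 of these too, with 0, 2 and 1 at an unadjusted p under 0.05, and DESeq2 called 0, 3 and 1. Beside a median of 1.62 over all genes tested, the median log2 fold changes from *Il1b* or *Cxcr2* to primary granule cells were -1.54, -1.21 and -0.11 for the 3 lists.

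The genes of these lists that edgeR called encode enzymes. *Gcnt1*, which builds the branched O-glycans that Selplg needs to bind selectins, fell by 9.91 ± 1.95 on the log2 scale in primary granule cells against *Il1b* or *Cxcr2* cells (edgeR, adjusted p = 0.000249). It was 0.0944, 0.263 and 1.07 CPM in primary granule cells of captures 31, 40 and 9c against 339, 262 and 771 CPM, while capture 28 had 748 against 1660 CPM. It was the only one of 7 tested glycosylation genes called there, by edgeR and by DESeq2, and *B4galt1* (402 CPM pooled) and *St3gal4* (42.4) were not. For basophil gene cells, edgeR called 0 of 7 and DESeq2 3 (*Fut7*, *Gcnt1* and *Tpst2*). In each of these comparisons 1 gene of this list had an unadjusted p under 0.05 by edgeR. *Mmp9*, the gelatinase, fell by 5.76 ± 1.0 (adjusted p = 1.04e-05), from 1828, 1523, 858 and 2612 CPM to 209, 114, 3.76 and 64.8 CPM in captures 31, 40, 9c and 28. It also fell by 9.55 ± 1.71 in basophil gene cells (adjusted p = 0.00437), and was the only one that edgeR called of 7 linkers and sheddases (DESeq2 called 3 and 2, *Mmp9* among them), of which *Msn* (638 CPM pooled) and the protease gene *Adam10* (335) were high. Of the linkers and sheddases, 2 and 1 had an unadjusted p under 0.05 by edgeR in the 2 class comparisons. Over all genes, 9.66% and 14% had such a p, edgeR called 0.319% and 0.314%, and DESeq2 15% and 19.2%. Between the stages, edgeR called 0 genes of the glycosylation and linker lists, with 0 at an unadjusted p under 0.05 and 0 by DESeq2.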

How the data were processed

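GFP-positive cells from cochleae of adult *Lfng*-EGFP mice were measured one by one. The authors made full-length cDNA with the SMARTer chemistry on the C1, aligned reads with STAR to GRCm38 (mm10 in the submitters' processing notes), removed endothelial cells and outliers, and deposited raw read counts per gene without molecular identifiers. Reads are thus not molecules, and amplification adds to the spread. Whether counting used strand is not given in the sources used here, so reads of overlapping genes may not be told apart.

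Symbols, exon lengths and positions came from GENCODE vM21, which matched 48349 of 48709 gene identifiers, and 92 spike-in sequences were left out of totals. RPKM was computed from CPM and the length of the merged exons. The captures, taken from the deposited cell table, which also gives the sequencing run, served as replicates. The stage tests weigh a difference against the spread between captures. The class tests weigh it against the spread that is left once differences between captures are removed. Per-cell scores and intensities of that table were not used. Sums of counts over the cells of a capture, or of a class within it (at least 3 cells of at least 50000 reads, with capture as a block), entered edgeR 4.0.16 in R 4.3.3 with TMM factors and filterByExpr, and quasi-likelihood p-values were adjusted over all tested genes by Benjamini-Hochberg at 0.05, with DESeq2 1.42.0 as the other tool. The basophil gene comparison used a second fit with those cells in place of the intermediate ones. Exact permutation tests were written in Python 3.11.15 with numpy 2.4.6, on tables handled with pandas 2.3.3. Exact intervals and Spearman's rho between members came from scipy 1.17.1. The scripts were tested on simulated data. No doublet caller was run. The authors gated on scatter at the sort and imaged each capture site before libraries were made. Total reads per capture ran from 119240 to 44268475, and the intervals on shares cover counting error only.

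The members, the gene lists and the classes were chosen with earlier results of these data known. Genes were named by rule: the members, class and marker genes, the 5 genes most like *Itga4*, *Itgam*, *Itgb2l* and *Selplg*, and, from the adhesion lists, called genes and the 3 with the most reads, of which 1 is not reported here. The alternatives were other tools, scalings and filters, other class limits, thinning, the run as a covariate and leaving out each capture. Over all cells, marker lists whose total is not given elsewhere held 0.836% (leukocytes), 0.795% (primary granule), 0.916% (basophils and mast cells), 0.0155% (monocytes and macrophages), 0.00369% (platelets), 0.0239% (B cells), 0.0506% (T and NK cells), 0.00111% (erythroid cells), 0.000844% (fibroblasts) and 0.0047% (glia) of reads.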

Additional observations from a re-analysis of the deposited data

Results flagged for a closer look

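In 26 groups of 4 or more captures, the highest and lowest capture of each member and ratio was compared with the rest of its stage by Dixon's criterion, which chance passes in about 1 of 20 groups. *Itga4* in P60 capture 17c, at 648 CPM, stood above the other P60 captures, and that capture holds 3 cells. *Cd44* in P60 capture 10c, at 8.39 CPM, stood below them, and the cells of that capture had a median of 451 reads.

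For 4 members, the difference between primary granule and *Il1b* or *Cxcr2* cells, as log2 CPM, had one sign in the 3 P60 captures and the other in P120 capture 28, and this difference between the stages was not tested. *Itgb2l* averaged 1.21 at P60 and was -0.10 at P120. *Itgal* averaged -2.88 at P60 and was 2.5 at P120, and *Selplg* averaged -3.64 and was 1.28. *Cd177* averaged 0.99 at P60 and was -2.12 at P120. With 1 capture at P120, the capture and the stage cannot be told apart.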

How the results depend on the processing

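Most of the members' stage fold changes turned under some setting, and most of their class fold changes kept their direction under the settings run. The class comparisons against *Il1b* or *Cxcr2* cells and the settings run on them, and the stage comparison of *Il1b* or *Cxcr2* cells alone, were chosen after seeing the data. The causes of the changes listed here were not tested. The count of genes called between stages (10) became 5 with library totals, 22 without the low-count filter, 0 with run as a covariate, 1 after thinning and 3 in *Il1b* or *Cxcr2* cells alone, and 1 to 16 when captures were left out in turn (1 without 10c, 2 without 36, 5 without 20c or 38, 6 without 32 or 40, 16 without 21c). Between primary granule and *Il1b* or *Cxcr2* cells, 42 became 1972 with DESeq2, 16 with 1 primary granule gene required, 18 at 10000 reads, 26 with run in the block and 18 to 40 without a capture (18 without 31, 23 without 40). Of those 42, 10 were higher and 32 lower in primary granule cells, while library totals gave 34 higher and 20 lower. For basophil gene cells, 36 became 2201 with DESeq2 and 12 (without 28) to 50 without a capture. Against intermediate cells, the 13 of primary granule cells became 934 (DESeq2), 4 (thinned), 6 (1 gene) and 8 (run in the block), and 7 (without 31) to 13 without a capture. The 2 of *Il1b* or *Cxcr2* cells became 584 (DESeq2), 7 (library totals), 4 (thinned), 5 (3 genes), 1 (10000 reads), 4 (run in the block), and 1 (without 31) to 3 without a capture.

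Stage fold changes turned with run as a covariate for *Itgam* (-0.25), *Itgb2l* (-1.37), *Selplg* (-0.22) and *Cd177* (-1.43), with DESeq2 for *Itgal* (-0.27) and *Itga4* (-0.46), at 50000 reads for *Itgal* (-0.0046), after thinning for *Cd177* (-0.078), and in *Il1b* or *Cxcr2* cells for *Itgal* (-0.86) and *Itga4* (-2.47). Leaving out captures gave -0.77 (without 38) to 1.19 for *Cd177*, -1.13 to 0.15 (without 31, or 0.13 without 32) for *Cd44*, -2.50 (without 28) to 0.84 for *Itga4*, which 4 other captures also turned, -0.057 (without 38) to 0.96 for *Itgal*, -0.10 to 2.90 for *Itgb1*, -0.51 (without 28) to 0.70 for *Itgb2l*, which 5 other captures also turned, and -0.93 to 1.33 for *Selplg*. From *Il1b* or *Cxcr2* to primary granule cells, *Itgb2l* turned with 3 genes (-0.82) and with run in the block (-0.33), and *Cd177* with library totals (0.30), thinning (0.22) and 1 gene (1.19). Left-out captures gave -1.24 to 0.12 for *Cd177*, -0.20 to 6.15 for *Itga4* and -0.56 (without 40) to 0.33 for *Itgb2l*, and for basophil gene cells -2.59 to 2.07 (without 32) for *Itga4*, which turned without 31 and 9c too, and -10.10 to -1.54 for *Cd177*.

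The stage ratio *Itga4* over *Itgam* turned to 0.12 with means of per-cell CPM and 0.011 within the runs that hold both stages, *Itgal* over *Itgam* to 1.09 and 1.28, *Itgb2l* over *Itgb2* to -0.86 within those runs, and *Itgb1* over *Itgb2* to -0.30 in *Il1b* or *Cxcr2* cells. Left-out captures gave -3.86 to -1.52 for *Itga4* over *Itgam* and -1.21 to 0.39 (without 21c) for *Itgal* over *Itgam*. Between the classes, *Itgal* over *Itgam* turned to -0.40 with per-cell means and ran from -1.60 to 0.96. The share of cells moved with a minimum of 10 reads or thinning for all 9 members. The stage comparison in intermediate cells alone could not be run, because only 1 capture holds at least 3 of the 14, and a minimum of 5 cells left no intermediate sum. Of cells with a read, more than 50% held under 10 for *Itga4*, *Cd177* and *Itgb1*, which limits their shares.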
